A study of Mus musculus with 20 samples.

Results

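The T cell identity genes described here are 33 protein-coding genes typical of T cells or, for Dntt, of developing lymphocytes. Some, such as Cd2, Ccr7, Il7r and Icos, are also expressed by other leukocytes. The 33 genes were taken by symbol from the count tables, and all 33 were found among 24062 listed genes. The choice set no cutoff on measured values, but earlier results of these data were known when it was made. By role they comprise 4 chains of the T cell receptor complex, 3 coreceptor genes, 9 receptor-proximal signalling genes, 6 surface receptors, 4 costimulation and checkpoint receptors, 4 transcription factors, 2 homing and survival receptors and the thymocyte enzyme Dntt. RNA-seq of whole lung was made from adult C57/129 mice aged 8 to 10 weeks, with no gate or sort, so every cell type of the lung contributed to each value. The 4 groups were Arg2-/- mice kept for 28 days in 10% oxygen (knockout hypoxia), Arg2-/- mice in 21% oxygen (knockout room air), Arg2+/+ mice in 10% oxygen (wild type hypoxia) and Arg2+/+ mice in 21% oxygen (wild type room air), each with 4 numbered samples from 20 libraries in all. Arg2 encodes the mitochondrial arginase. The labels name males and females without giving the sex of a sample, and all mice received ketamine and xylazine before the lungs were removed.

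T cells recognise peptide on other cells through the T cell receptor, whose CD3 and zeta chains carry the signalling motifs that Lck phosphorylates and Zap70 then binds. Naive T cells circulate between blood and lymphoid organs and depend on Il7r for survival and on Ccr7 for entry to lymph nodes. The lung holds T cells both in its capillary blood and in the tissue. Dntt and Rag1 are expressed in developing lymphocytes of the thymus and bone marrow and are silent in mature T cells. In whole-tissue RNA, fewer cells of a type and less RNA per cell cannot be told apart.

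The 16 samples held between 9531270 (wild type room air 3) and 63331530 (knockout room air 3) counts in genes. Levels are given in CPM (counts-per-million of a sample's counts in genes, scaled between samples by edgeR's TMM factors). Before that scaling, 3 counts corresponded to 0.0474 to 0.315 CPM. The targeted gene Arg2 had 4.57, 3.21, 5.36 and 3.97 CPM in knockout hypoxia lungs and 4.57, 5.25, 4.88 and 7.78 CPM in knockout room air lungs, against 6.33, 11.7, 10 and 9.12 CPM in wild type hypoxia lungs and 8.47, 9.14, 11.8 and 7.3 CPM in wild type room air lungs. Arg2 counts were thus present in every library labelled knockout, and knockout room air 4 lay within the wild type range. The genotype difference in Arg2 was called in hypoxia (log2 fold change -1.13 ± 0.22, SE, adjusted p = 0.00191, from edgeR's quasi-likelihood test with Benjamini-Hochberg adjustment over all genes tested, as throughout) and missed the threshold in room air (-0.70 ± 0.21, adjusted p = 0.0843). Some libraries had high counts of genes typical of other organs. The thymocyte gene Rag1 reached 46.2 and 35.3 CPM in knockout room air 3 and 4, against at most 2.99 CPM elsewhere. Knockout room air 3 also had 187 CPM of the atrial gene Nppa. The pancreatic lipase gene Cel reached 255 CPM in knockout hypoxia 1, and the muscle myosin gene Myh4 357 CPM in wild type room air 1. The lung markers Sftpc, Ager, Scgb1a1, Cdh5, Pecam1, Hopx, Foxj1 and Col1a2 were present in all 16 samples.

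The 3 CD3 genes are clustered in the genome. Cd3d lies on chromosome 9 at 44981786 to 44987339, with Cd3g at 44969572 to 44980431 beside it on the opposite strand and Cd3e at 44998740 to 45009627 on that same strand. Cd247, which encodes the zeta chain, lies on chromosome 1 at 165788681 to 165877277 (GENCODE, GRCm38). The 250 bases before the RefSeq start site of these genes are shown because all 4 chains fell in knockout hypoxia lungs, with those of Zap70, which did not, and of Dntt, which stood apart in 2 samples. The sequences are from RefSeq on GRCm38.p6, read 5′ to 3′ on the gene's own strand at chr9:44981536-44981785 (Cd3d, plus), chr9:45009612-45009861 (Cd3e, minus), chr9:44980432-44980681 (Cd3g, minus), chr1:165788431-165788680 (Cd247, plus), chr1:36761548-36761797 (Zap70, plus) and chr19:41029025-41029274 (Dntt, plus). Capitals mark motif matches on either strand, a match on the other strand being printed as its reverse complement. The letters searched were AGGAAG for the core motif of ETS factors and TGNGGT for that of RUNX factors. For TCF and LEF factors they were CTTTGA, and for GATA factors the letters were AGATAA.
Cd3d: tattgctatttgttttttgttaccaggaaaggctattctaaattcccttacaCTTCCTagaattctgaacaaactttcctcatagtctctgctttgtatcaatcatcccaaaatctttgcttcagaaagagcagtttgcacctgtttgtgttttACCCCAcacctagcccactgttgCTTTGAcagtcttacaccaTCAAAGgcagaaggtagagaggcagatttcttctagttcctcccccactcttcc
Cd3e: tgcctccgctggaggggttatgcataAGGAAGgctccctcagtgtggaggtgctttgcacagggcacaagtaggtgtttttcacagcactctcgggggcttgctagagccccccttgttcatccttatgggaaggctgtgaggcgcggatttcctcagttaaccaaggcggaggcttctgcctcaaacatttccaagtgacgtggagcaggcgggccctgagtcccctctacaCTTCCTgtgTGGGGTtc
Cd3g: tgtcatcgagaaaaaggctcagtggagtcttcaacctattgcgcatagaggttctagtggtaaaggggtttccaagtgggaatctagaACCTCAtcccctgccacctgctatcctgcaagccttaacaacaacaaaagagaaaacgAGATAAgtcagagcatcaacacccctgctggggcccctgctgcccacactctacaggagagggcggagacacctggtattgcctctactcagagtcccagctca
Cd247: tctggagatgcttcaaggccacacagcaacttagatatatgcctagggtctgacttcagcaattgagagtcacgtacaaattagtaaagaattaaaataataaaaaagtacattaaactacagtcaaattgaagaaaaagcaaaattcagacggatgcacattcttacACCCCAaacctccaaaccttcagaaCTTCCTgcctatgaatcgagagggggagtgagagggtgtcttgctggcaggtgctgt
Zap70: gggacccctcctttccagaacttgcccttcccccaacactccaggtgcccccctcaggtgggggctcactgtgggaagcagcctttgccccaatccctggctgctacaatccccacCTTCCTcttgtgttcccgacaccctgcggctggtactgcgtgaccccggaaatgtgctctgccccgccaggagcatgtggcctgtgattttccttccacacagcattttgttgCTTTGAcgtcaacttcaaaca
Dntt: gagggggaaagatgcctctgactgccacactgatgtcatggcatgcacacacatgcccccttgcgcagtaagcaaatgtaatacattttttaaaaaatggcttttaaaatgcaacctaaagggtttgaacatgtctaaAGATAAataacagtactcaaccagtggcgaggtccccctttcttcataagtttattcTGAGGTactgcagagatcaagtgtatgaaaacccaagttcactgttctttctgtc
Windows were found for 23 of the 33 genes, with none listed for Cd4, Cd8b1, Skap1, Sh2d2a, Cd2, Cd6, Thy1, Cd28, Icos and Ccr7. The ETS letters occurred in 43.5% of the 23 windows and in 29.5% of all 32851 RefSeq windows, in which a gene can have several. The RUNX letters occurred in 56.5% and 40.1%, the TCF and LEF letters in 21.7% and 13.8%, and the GATA letters in 8.70% and 9.99%. Cd3d held 1 ETS, 1 RUNX and 2 TCF and LEF matches, Cd3e held 2 ETS and 1 RUNX, Cd247 held 1 ETS and 1 RUNX, and Cd3g held 1 RUNX and 1 GATA. Zap70 held 1 ETS and 1 TCF and LEF match, and Dntt 1 RUNX and 1 GATA match. No marked matches overlapped in the 6 windows. A match describes the letters and is not a binding site.

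The first comparison asks how T cell genes differed between hypoxia and room air in Arg2-/- lungs. Of the 32 genes tested, 24 fell and 0 rose (adjusted p under 0.05). Among all 15766 genes tested, 9.10% were called lower and 7.93% higher. The median log2 fold change of the 32 genes was -1.58, beside 0.00 over all genes. Calls ranged from -0.89 for Lef1 to -4.09 for Dntt, that is 1.85-fold to 17.0-fold lower. The Dntt value rested on knockout room air 3 and 4, at 12.7 and 11.6 CPM. Knockout room air 1 and 2 had 0.365 and 0.212 CPM, and the Dntt groups overlapped. The next largest call was that of Cd8a at -2.36. The groups did not overlap for 23 genes, 21 of them among the 24 called. The shares of all genes whose groups did not overlap, or with an unadjusted p under 0.05, were not counted in this or later comparisons. Such counts therefore describe the values of these genes and cannot be set against all genes. At an unadjusted p under 0.05, 1 gene, Zap70, was higher, and DESeq2 called it higher too, with 9.56% of all genes called higher by DESeq2. The remaining gene, Foxp3, was below the filter on low counts. Taken before TMM scaling, as the filter is, its level exceeded the filter's 0.32 CPM in 1 sample, while 28 genes exceeded it in all 16. Trat1, Cd5, Ctla4 and Dntt exceeded it in 13, 15, 12 and 9 samples.

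All 4 chains of the receptor complex fell in knockout hypoxia lungs. Cd3e, the epsilon chain present in every complex, had 1.22, 1.25, 0.734 and 0.496 CPM in knockout hypoxia lungs, against 3.07, 1.7, 3.43 and 2.14 CPM in knockout room air lungs. Every hypoxia sample lay below every room air sample, and the mean was 0.925 ± 0.371 CPM against 2.58 ± 0.803 CPM (SD, n = 4 each; log2 fold change -1.52 ± 0.30, SE, adjusted p = 0.00147). Cd3g, the gamma chain, had 2.2, 3.51, 1.86 and 1.42 CPM in knockout hypoxia lungs, against 5.86, 6, 7.24 and 11.7 CPM in knockout room air lungs (-1.78 ± 0.30, adjusted p = 0.000404). These groups were also apart, with knockout room air 4 the highest of the 16 samples. Cd247 had 4.08, 3.42, 2.6 and 2.03 CPM in knockout hypoxia lungs, against 8.86, 10.2, 11.1 and 13.7 CPM in knockout room air lungs, again without overlap (-1.86 ± 0.24, adjusted p = 3.37e-05). Cd247 overlaps Pou2f1 on the opposite strand, and whether the counting used strand is not stated. Cd3d, the delta chain, had 2.17, 2.59, 2.32 and 0.992 CPM in knockout hypoxia lungs, against 2.92, 4.03, 5.67 and 5.45 CPM in knockout room air lungs (-1.19 ± 0.27, adjusted p = 0.00476). The Cd3d groups were separated by the narrow gap between 2.59 and 2.92 CPM.

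In wild type lungs 1 of the 4 chains, Cd247, passed. Cd3e had 2.76, 2.04, 2.12 and 2.02 CPM in wild type hypoxia lungs, against 2.65, 4.34, 3.55 and 3.37 CPM in wild type room air lungs (-0.64 ± 0.28, adjusted p = 0.25). Cd3g had 6.06, 5.82, 4.23 and 4.15 CPM in wild type hypoxia lungs, against 6.46, 9.02, 3.87 and 8.49 CPM in wild type room air lungs (-0.49 ± 0.28, adjusted p = 0.428). Both pairs of groups overlapped and neither passed the test. Cd3d had 2.81, 3.9, 3.24 and 2.81 CPM in wild type hypoxia lungs, against 5.1, 4.93, 3.65 and 6.02 CPM in wild type room air lungs (-0.64 ± 0.26, adjusted p = 0.212). Cd247 had 6.33, 5.85, 5.93 and 5.21 CPM in wild type hypoxia lungs, against 10.7, 15.2, 5.91 and 11.7 CPM in wild type room air lungs. It was lower in hypoxia (-0.93 ± 0.23, adjusted p = 0.022), and wild type room air 3 alone reached down into the hypoxia range. The 4 chains summed to 2.68% to 6.25% of the level of Ptprc, the pan-leukocyte CD45 gene, in knockout hypoxia lungs and to 6.58% to 9.07% in knockout room air lungs, with 6.06% to 7.50% in wild type hypoxia lungs and 5.32% to 11.5% in wild type room air lungs.

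The 3 coreceptor genes fell in knockout hypoxia lungs, and all 3 had their highest levels of the series in knockout room air 3 and 4, the samples with high Rag1. Cd8a, which encodes the CD8 alpha chain of cytotoxic T cells, had 1.51, 2.8, 2.2 and 0.638 CPM in knockout hypoxia lungs, against 4.61, 4.83, 11.8 and 14 CPM in knockout room air lungs (-2.36 ± 0.41, adjusted p = 0.00081). Cd8b1, the beta chain, had 2.47, 1.71, 2.2 and 1.02 CPM in knockout hypoxia lungs, against 3.76, 3.24, 10 and 12.6 CPM in knockout room air lungs (-2.03 ± 0.38, adjusted p = 0.00136). Cd4, the coreceptor of helper T cells, had 3.55, 3.3, 3.22 and 2.05 CPM in knockout hypoxia lungs, against 4.4, 4.51, 10.7 and 8.35 CPM in knockout room air lungs (-1.23 ± 0.27, adjusted p = 0.00351). None of the 3 pairs of groups overlapped, but knockout room air 3 and 4 stood well above samples 1 and 2. Without those 2 samples the Cd8a call held (-1.44 ± 0.38, adjusted p = 0.0218), whereas Cd8b1 (-0.95 ± 0.30, adjusted p = 0.0556) and Cd4 (-0.56 ± 0.25, adjusted p = 0.175) no longer passed.

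In wild type lungs none of the coreceptors was called. Cd8a had 3.73, 5.23, 4.69 and 5 CPM in wild type hypoxia lungs, against 6.02, 7.34, 3.87 and 7.33 CPM in wild type room air lungs. Cd8b1 had 4.22, 3.84, 3.57 and 4.06 CPM in wild type hypoxia lungs, against 6.95, 6.35, 3.65 and 6.59 CPM in wild type room air lungs. Cd4 had 3.51, 5.31, 5.39 and 5.35 CPM in wild type hypoxia lungs, against 5.58, 6.91, 6.13 and 8.26 CPM in wild type room air lungs. Wild type room air 3 lay within the hypoxia range for both CD8 chains, while the Cd4 groups did not overlap (-0.45 ± 0.26, adjusted p = 0.428). The ratio of Cd4 to Cd8a CPM was 2.35, 1.18, 1.46 and 3.22 in knockout hypoxia lungs, against 0.955, 0.934, 0.907 and 0.595 in knockout room air lungs. It spanned 0.942 to 1.15 in wild type hypoxia lungs and 0.927 to 1.58 in wild type room air lungs. Knockout hypoxia lungs 1 and 4 thus had the highest ratios of the 16, at Cd8a levels of 1.51 and 0.638 CPM.

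Among the 9 receptor-proximal signalling genes 7 fell in knockout hypoxia lungs. Lck, the kinase that phosphorylates the CD3 chains, had 4.87, 6.09, 3.95 and 3.78 CPM in knockout hypoxia lungs, against 9.42, 12.4, 17.8 and 20.5 CPM in knockout room air lungs (-1.68 ± 0.23, adjusted p = 7.92e-05). It had 9.46, 8.44, 8.34 and 9.45 CPM in wild type hypoxia lungs, against 11.9, 17.1, 8.7 and 15.2 CPM in wild type room air lungs (-0.59 ± 0.23, adjusted p = 0.169). The knockout groups were apart, and the wild type groups overlapped through wild type room air 3. The Tec kinase Txk (-1.80 ± 0.25), the adaptor Skap1 (-1.85 ± 0.24), the SH2 adaptor Sh2d2a (-1.69 ± 0.29), the phosphatase-family regulator Ubash3a (-1.51 ± 0.34) and Themis, needed for thymocyte selection (-2.10 ± 0.28), fell with adjusted p-values from 2.57e-05 to 0.00428. Their knockout groups did not overlap. Skap1 had 1.55, 1.54, 1.98 and 1.89 CPM in knockout hypoxia lungs, against 4.85, 5.04, 6.89 and 8.31 CPM in knockout room air lungs. Lat, the membrane scaffold that Zap70 phosphorylates, had 3.59, 5.05, 3.56 and 2.72 CPM in knockout hypoxia lungs, against 3.99, 5.15, 7.93 and 11.1 CPM in knockout room air lungs. The Lat groups overlapped, and the call (-0.92 ± 0.26, adjusted p = 0.0183) was lost without knockout hypoxia 4, without either of knockout room air 3 and 4, and without both of these (-0.29 ± 0.24, adjusted p = 0.528).

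Zap70, the kinase that docks on phosphorylated CD3 and zeta chains, differed from the rest of the group. It had 6.94, 10.6, 10.4 and 8.67 CPM in knockout hypoxia lungs, against 4.83, 5.89, 6.43 and 6.67 CPM in knockout room air lungs. Every hypoxia sample lay above every room air sample, but the difference missed the threshold (0.62 ± 0.22, adjusted p = 0.0568). Over 29 alternative fits the fold change stayed between 0.53 and 0.84 and was called higher in 12. Zap70 had 4.97, 9.27, 6.81 and 7.84 CPM in wild type hypoxia lungs, against 6.35, 9.45, 4.08 and 7.13 CPM in wild type room air lungs, with overlapping groups (0.08 ± 0.22, adjusted p = 0.916). The ratio of Zap70 to Lck CPM was 1.43, 1.74, 2.64 and 2.29 in knockout hypoxia lungs, against 0.513, 0.474, 0.362 and 0.326 in knockout room air lungs. It ranged from 0.526 to 1.10 in wild type hypoxia lungs and from 0.468 to 0.552 in wild type room air lungs. Trat1, which stabilises the receptor complex at the surface, was near the limit of detection, at 0.526, 0.877, 0.621 and 0.354 CPM in knockout hypoxia lungs, against 0.81, 0.0531, 1.19 and 0.42 CPM in knockout room air lungs (-0.22 ± 0.54, adjusted p = 0.84). Its groups overlapped in both genotypes.

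**Figure D1:**
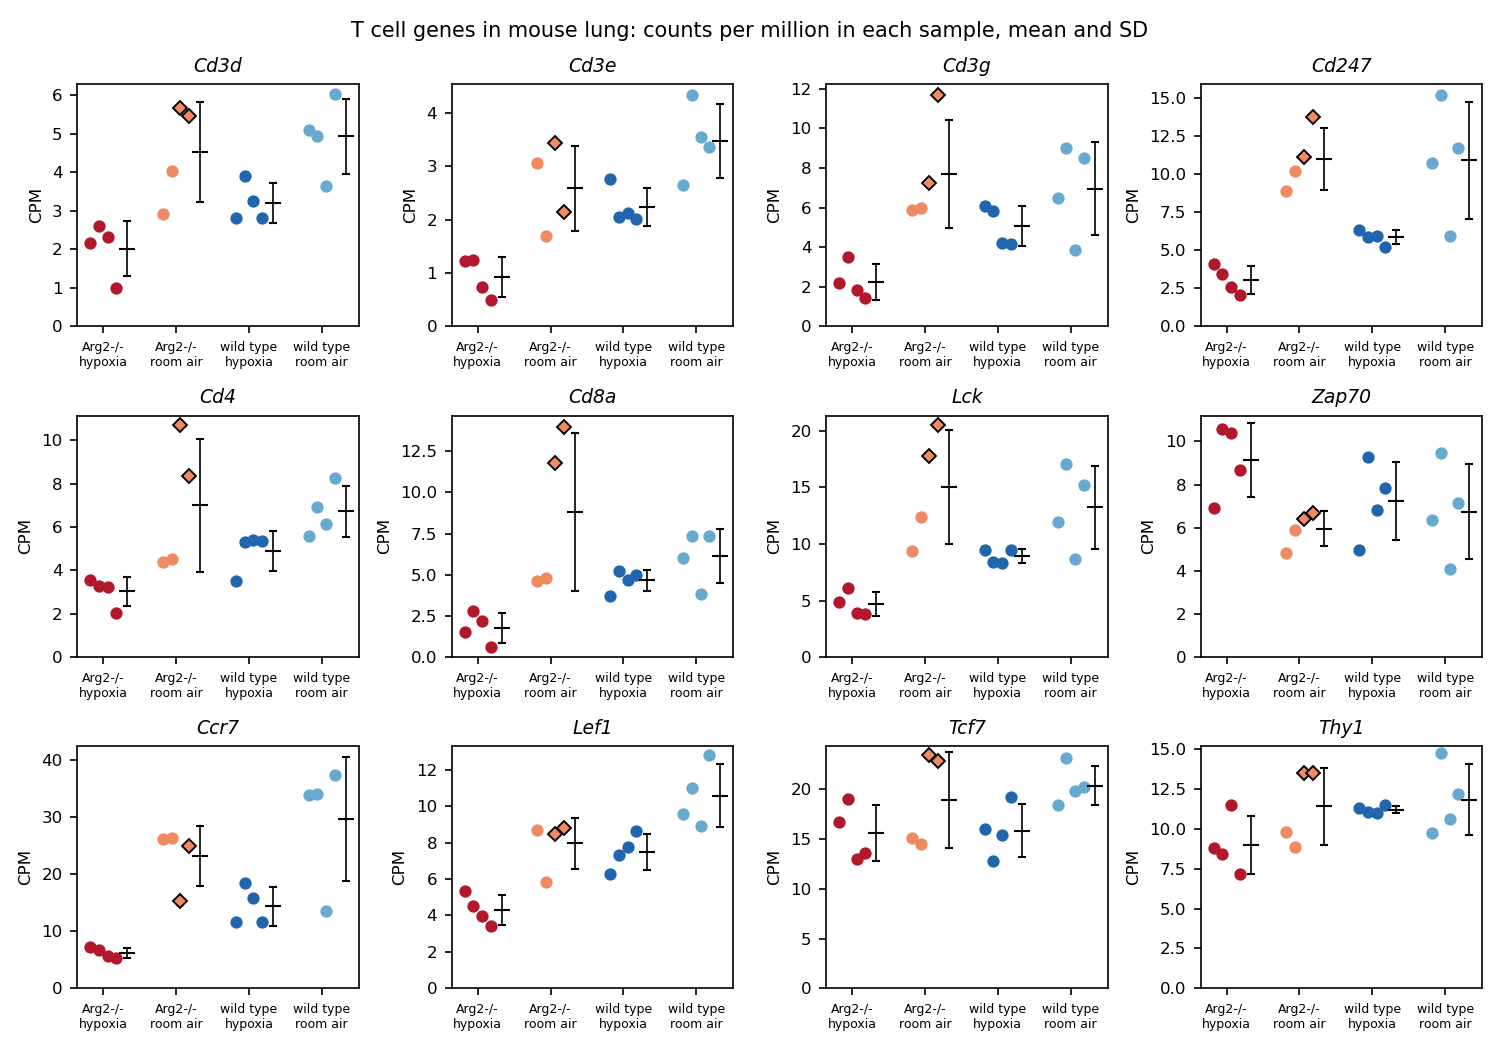
Level in CPM (vertical axes, from 0) of 12 T cell genes in each of 16 lungs, by group; circles and diamonds are samples, diamonds the knockout room air samples with Dntt above 1 CPM, and the black bar with whiskers is mean and SD (n = 4). Knockout hypoxia lungs lie below knockout room air lungs for the CD3 chains, Cd247, Cd8a, Lck, Ccr7 and Lef1, lie above them for Zap70, and overlap them for Tcf7 and Thy1.

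Of the 6 surface receptors 4 fell in knockout hypoxia lungs. Cd6 (-1.95 ± 0.38) and Cd5 (-1.29 ± 0.42, adjusted p = 0.0417), related scavenger-receptor proteins that dampen receptor signals, Cd96 (-1.81 ± 0.27), which binds the poliovirus receptor, and Ms4a4b (-1.65 ± 0.21), a membrane protein of mouse T cells, passed the test. Ms4a4b had 3.68, 5.13, 4.01 and 2.22 CPM in knockout hypoxia lungs, against 11.6, 14.8, 9.63 and 10.8 CPM in knockout room air lungs, a wide gap. Cd5, whose groups overlapped and whose level was as low as 0.282 CPM in knockout hypoxia 3, was called in 20 of 29 alternative fits and lost when any of knockout hypoxia 3 or 4, knockout room air 2, 3 or 4 or wild type hypoxia 1 was left out. Thy1, a membrane glycoprotein of mouse T cells that stromal cells also carry, had 8.78, 8.43, 11.5 and 7.18 CPM in knockout hypoxia lungs, against 9.83, 8.86, 13.5 and 13.5 CPM in knockout room air lungs. Its groups overlapped and it did not pass (-0.36 ± 0.16, adjusted p = 0.143). Thy1 had 11.3, 11.1, 11 and 11.5 CPM in wild type hypoxia lungs, against 9.77, 14.8, 10.6 and 12.2 CPM in wild type room air lungs, where the hypoxia samples lay inside the room air range. Cd2, an adhesion receptor shared by T and natural killer cells, had 20, 19.7, 19 and 19 CPM in knockout hypoxia lungs, against 25.2, 25.3, 25 and 22.8 CPM in knockout room air lungs. These Cd2 groups did not overlap although the difference was small and not called (-0.34 ± 0.13, adjusted p = 0.0858).

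Of the 4 costimulation and checkpoint receptors 1 fell. Cd28, the main costimulatory receptor of naive T cells, had 2.04, 3.34, 2.6 and 1.18 CPM in knockout hypoxia lungs, against 6.08, 8.38, 9.47 and 10.8 CPM in knockout room air lungs (-1.95 ± 0.28, adjusted p = 0.000106). It had 4.33, 2.57, 6.06 and 5.32 CPM in wild type hypoxia lungs, against 7.52, 6.54, 7.2 and 7.24 CPM in wild type room air lungs (-0.64 ± 0.27, adjusted p = 0.224). Neither pair of groups overlapped, and the wild type difference was not called. The inducible costimulator Icos (-0.45 ± 0.27, adjusted p = 0.28), the inhibitory receptor Ctla4 (-1.22 ± 0.47, adjusted p = 0.0845) and the tumour necrosis factor receptor family member Cd27 (-0.76 ± 0.27, adjusted p = 0.0646) did not pass in knockout lungs. Ctla4 was at 0.23 to 1.48 CPM over all 16 samples. Cd28, Icos and Ctla4 are neighbours on chromosome 1, at 60716800 to 60773359, 60977927 to 61000320 and 60887000 to 60915832.

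Among transcription factors Lef1 and Bcl11b fell and Tcf7 did not pass. Lef1 and Tcf7 are paired factors of T cell development and of naive and memory cells. Lef1 had 5.33, 4.51, 3.95 and 3.42 CPM in knockout hypoxia lungs, against 8.71, 5.84, 8.46 and 8.81 CPM in knockout room air lungs, without overlap (-0.89 ± 0.17, adjusted p = 0.00127). It had 6.27, 7.32, 7.76 and 8.63 CPM in wild type hypoxia lungs, against 9.55, 11, 8.92 and 12.8 CPM in wild type room air lungs (-0.50 ± 0.17, adjusted p = 0.107). Tcf7 had 16.7, 19, 13 and 13.6 CPM in knockout hypoxia lungs, against 15.1, 14.5, 23.4 and 22.8 CPM in knockout room air lungs. The Tcf7 groups overlapped (-0.28 ± 0.17, adjusted p = 0.276), and knockout room air 3 and 4 were its highest samples in that genotype. Tcf7 had 16, 12.8, 15.4 and 19.2 CPM in wild type hypoxia lungs, against 18.4, 23.1, 19.8 and 20.2 CPM in wild type room air lungs (-0.36 ± 0.17, adjusted p = 0.285). Bcl11b, which fixes commitment to the T lineage, had 1.86 ± 0.581 CPM in knockout hypoxia lungs against 6.48 ± 1.94 CPM in knockout room air lungs (mean ± SD, n = 4 each; -1.81 ± 0.27, adjusted p = 0.000142).

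Foxp3, the factor that defines regulatory T cells, was hardly detected and was not tested in the main fit. With no filter on low counts, edgeR called Foxp3 in no comparison. Its smallest adjusted p was then 0.173, for the knockout within hypoxia (log2 fold change -1.68). It had 0.132, 0.125, 0.0565 and 0.0236 CPM in knockout hypoxia lungs, 0.0635, 0, 0.107 and 0.114 CPM in knockout room air lungs, 0.649, 0.207, 0.0415 and 0.234 CPM in wild type hypoxia lungs and 0.243, 0.279, 0 and 0.113 CPM in wild type room air lungs. The highest value was 12 counts in wild type hypoxia 1. The 2 samples at 0, knockout room air 2 and wild type room air 3, allow up to 0.161 and 0.315 CPM (3 counts before TMM scaling, counting error only). Ccdc22 and Ppp1r3f overlap Foxp3 on the opposite strand, so even these few counts may not all be its own. No difference in Foxp3 was detectable at this depth.

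Both homing and survival receptors fell in knockout hypoxia lungs. Ccr7 had 7.2, 6.8, 5.76 and 5.24 CPM in knockout hypoxia lungs, against 26.2, 26.4, 15.4 and 24.9 CPM in knockout room air lungs (-1.89 ± 0.27, adjusted p = 0.000142). Knockout room air 3, one of the 2 samples with high Rag1, was the lowest of its group, yet higher than any hypoxia sample. Ccr7 had 11.6, 18.5, 15.8 and 11.6 CPM in wild type hypoxia lungs, against 33.9, 34.1, 13.6 and 37.5 CPM in wild type room air lungs (-1.07 ± 0.25, adjusted p = 0.02). Wild type room air 3, the shallowest sample, fell inside the hypoxia range while the other 3 were at 33.9 CPM or above. Il7r had 10.5, 14.1, 10.6 and 6.99 CPM in knockout hypoxia lungs, against 17.8, 18.5, 16 and 31.8 CPM in knockout room air lungs, without overlap (-1.0 ± 0.23, adjusted p = 0.00563). It had 12.3, 9.51, 12.8 and 17.3 CPM in wild type hypoxia lungs, against 15.4, 17.9, 20.7 and 19 CPM in wild type room air lungs (-0.48 ± 0.23, adjusted p = 0.305). B cells and dendritic cells also express Ccr7, and innate lymphoid cells Il7r.

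Dntt, the enzyme that adds nucleotides at receptor gene joints in thymocytes, separated 2 samples from all others. It had 0.461, 0.376, 0.395 and 0.26 CPM in knockout hypoxia lungs, against 0.365, 0.212, 12.7 and 11.6 CPM in knockout room air lungs. It had 0, 0.0886, 0.29 and 0.117 CPM in wild type hypoxia lungs, against 0.353, 0.403, 0.322 and 0.594 CPM in wild type room air lungs. The knockout groups overlapped, and the difference was called (-4.09 ± 1.04, adjusted p = 0.0146), though not without knockout hypoxia 4. Knockout room air 3 and 4 held 832 and 305 Dntt counts and the other 14 samples at most 0.594 CPM. Rag1, which cuts receptor genes for joining, had 0.207, 0, 46.2 and 35.3 CPM in knockout room air lungs, and the immature T cell gene Arpp21 0.0159, 0.106, 3.93 and 3.2 CPM. Rag2 was at 1.52 and 0.954 CPM in the same 2 samples, and at most 0.132 CPM elsewhere. Ptcra, the pre-receptor alpha chain of thymocytes, was at 0.0305 and 0.229 CPM there and at most 0.107 CPM elsewhere. The sum of the 6 thymic epithelium genes examined did not set these samples apart. It was 5.73 and 5.07 CPM in knockout room air 3 and 4, against 4.77 and 5.47 CPM in knockout room air 1 and 2. Of these genes, Psmb11 had 16 and 3 counts in knockout room air 3 and 4 and at most 1 in any other sample. Foxn1 had 3 counts in knockout room air 3 and 0 elsewhere. Aire had 1 count in each of knockout room air 3 and 4, and up to 3 in wild type room air 4. The 8 thymocyte genes examined besides Dntt summed to 92.9 and 80.5 CPM in these samples, against 36.6 and 33.1 CPM in the other knockout room air lungs. Over the other groups the sum was 26.0 to 33 CPM in knockout hypoxia lungs, 25.9 to 36.1 CPM in wild type hypoxia lungs and 31.8 to 45.0 CPM in wild type room air lungs.

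Knockout room air 3 and 4 were the 2 highest of all 16 samples for 8 of the 33 genes, namely Cd4, Cd8a, Cd8b1, Lck, Themis, Cd28, Bcl11b and Dntt. Themis had 4.27, 4.62, 10 and 9.19 CPM and Bcl11b 4.27, 5.52, 7.53 and 8.58 CPM in knockout room air lungs. Without these 2 samples, 17 genes were called lower in knockout hypoxia and 0 higher, where 5.41% of 16095 genes tested were called lower. The median log2 fold change was then -1.28. The calls of 7 genes were lost. Ubash3a (-1.34 ± 0.42, adjusted p = 0.0539), Cd5 (-0.99 ± 0.52, adjusted p = 0.271) and Cd3d (-0.79 ± 0.32, adjusted p = 0.133) no longer passed, beside -1.51, -1.29 and -1.19 with all samples, Cd8b1 and Cd4 came to the values given above, and Dntt came to 0.26 ± 0.62 (adjusted p = 0.863) and Lat to -0.29 ± 0.24. The 2 samples were picked by their Dntt level, so the loss of the Dntt call was fixed in advance. The calls of Cd3e (-1.41 ± 0.35), Cd3g (-1.41 ± 0.32), Cd247 (-1.65 ± 0.28), Lck (-1.22 ± 0.23), Ccr7 (-2.07 ± 0.29) and Ms4a4b (-1.82 ± 0.24) were kept, with adjusted p-values from 0.000203 to 0.0168. Leaving out also the samples with pancreas or skeletal muscle genes (knockout hypoxia 1 and 2 and wild type room air 1) gave 16 lower and 0 higher, with 3.99% of all genes called lower.

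**Figure D2:**
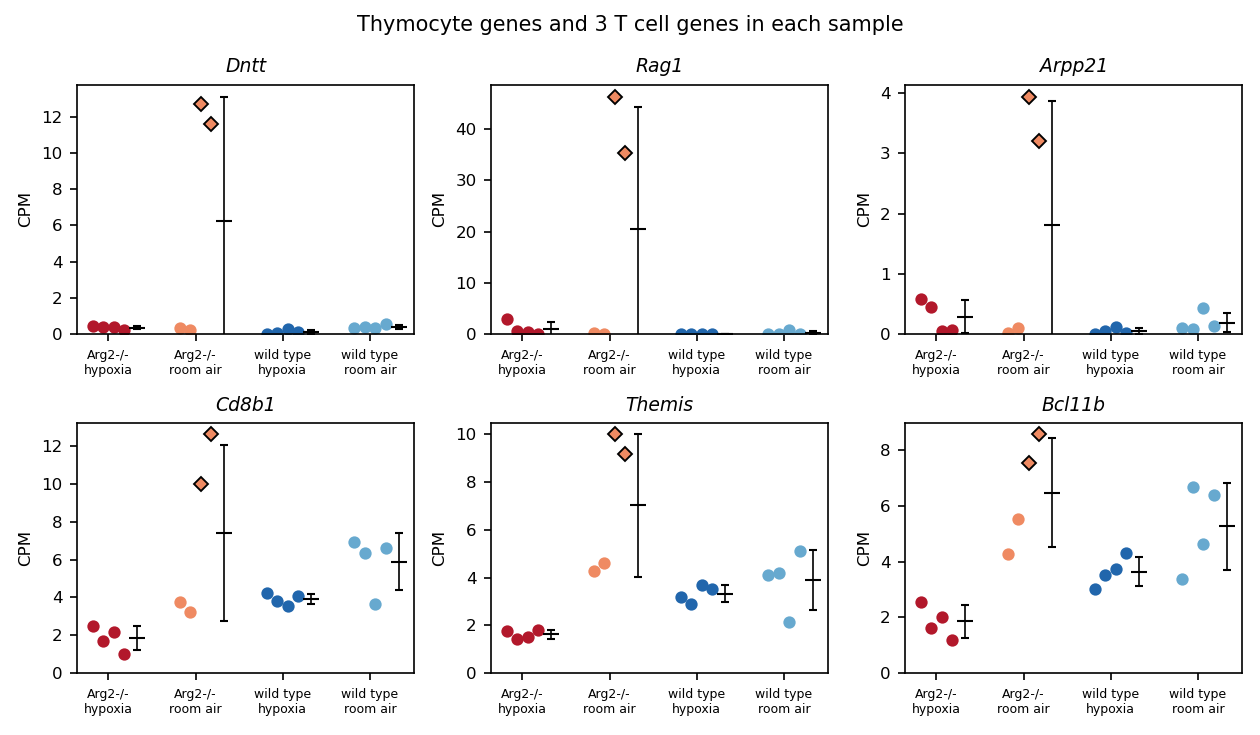
Level in CPM (vertical axes, from 0) of the thymocyte genes Dntt, Rag1 and Arpp21 and of the T cell genes Cd8b1, Themis and Bcl11b in each of 16 lungs, by group; diamonds are knockout room air 3 and 4 and the black bar with whiskers is mean and SD (n = 4). Dntt is at 12.7 and 11.6 CPM in the diamonds and at most 0.594 CPM elsewhere, and the diamonds are also the highest samples for the 3 T cell genes.

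**Figure D3:**
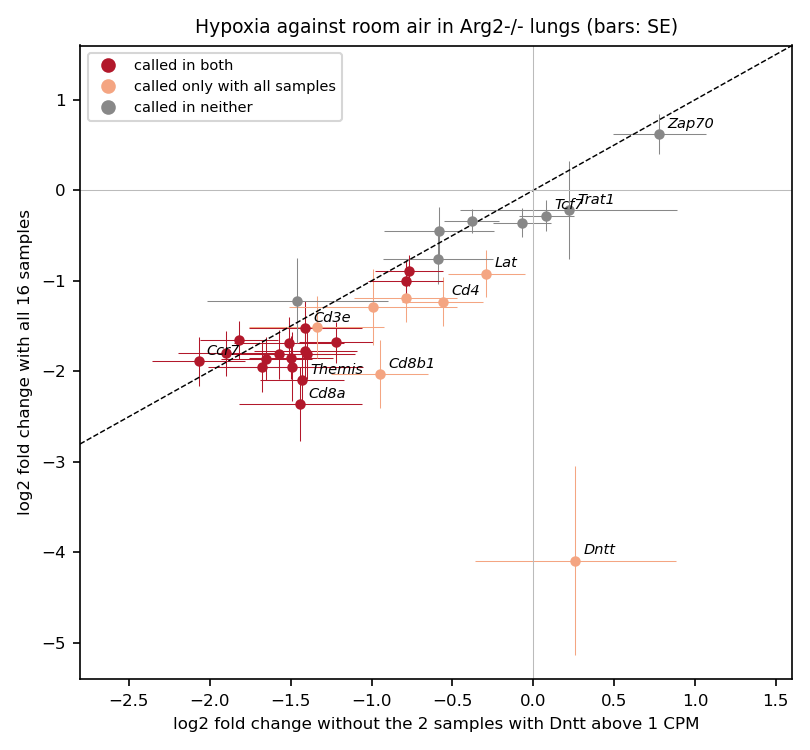
Log2 fold change of 32 T cell genes between knockout hypoxia and knockout room air, with all 16 samples in the fit (vertical axis) and without knockout room air 3 and 4 (horizontal axis); bars are SE, colours give the calls, and the dashed line marks equal values. Ccr7 lies on or near the line, whereas Cd8a, Cd8b1, Cd4, Lat and Dntt lie below it, with Dntt at -4.09 and 0.26. The samples left out were picked by their Dntt level, which fixed the shift of Dntt in advance.

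The same exposure in wild type lungs gave fewer calls. Of the 32 genes 5 fell and 0 rose, while 2.31% of all genes were called lower and 2.67% higher. The median of the 32 was -0.56 beside -0.01 over all genes, and 8 pairs of groups did not overlap. At an unadjusted p under 0.05, 18 genes were lower and 0 higher, with the share of all genes not counted. DESeq2 called 8 lower and 0 higher, with 3.25% of all genes lower by DESeq2. The 5 were Cd247, Txk (-0.84 ± 0.23, adjusted p = 0.0429), Ubash3a (-1.32 ± 0.33, adjusted p = 0.0205), Ms4a4b (-0.75 ± 0.20, adjusted p = 0.0378) and Ccr7. Ubash3a had 0.649, 1.27, 1.58 and 1.14 CPM in wild type hypoxia lungs, against 2.38, 4.09, 1.61 and 3.34 CPM in wild type room air lungs. Txk had 3.08, 2.78, 2.74 and 3.01 CPM in wild type hypoxia lungs, against 4.79, 7.19, 3.55 and 4.98 CPM in wild type room air lungs. Ms4a4b had 6.7, 5.73, 6.93 and 8.54 CPM in wild type hypoxia lungs, against 9.49, 13.9, 11.6 and 12 CPM in wild type room air lungs. The groups of these 3 genes did not overlap. All 5 also fell in knockout hypoxia lungs. The count was 0 when any of wild type hypoxia 1, wild type room air 2 and wild type room air 4 was left out, 2 without wild type hypoxia 2 or 4, and 3 without wild type hypoxia 3 or wild type room air 1. In these fits 1.3% to 2.49% of all genes were called lower. Without the shallowest sample, wild type room air 3, the count was 7, with Cd96 and Skap1 added, and 2.98% of all genes were called lower. Txk was called in 11 of 29 alternative fits, with adjusted p-values from 0.00555 to 0.181.

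**Figure D4:**
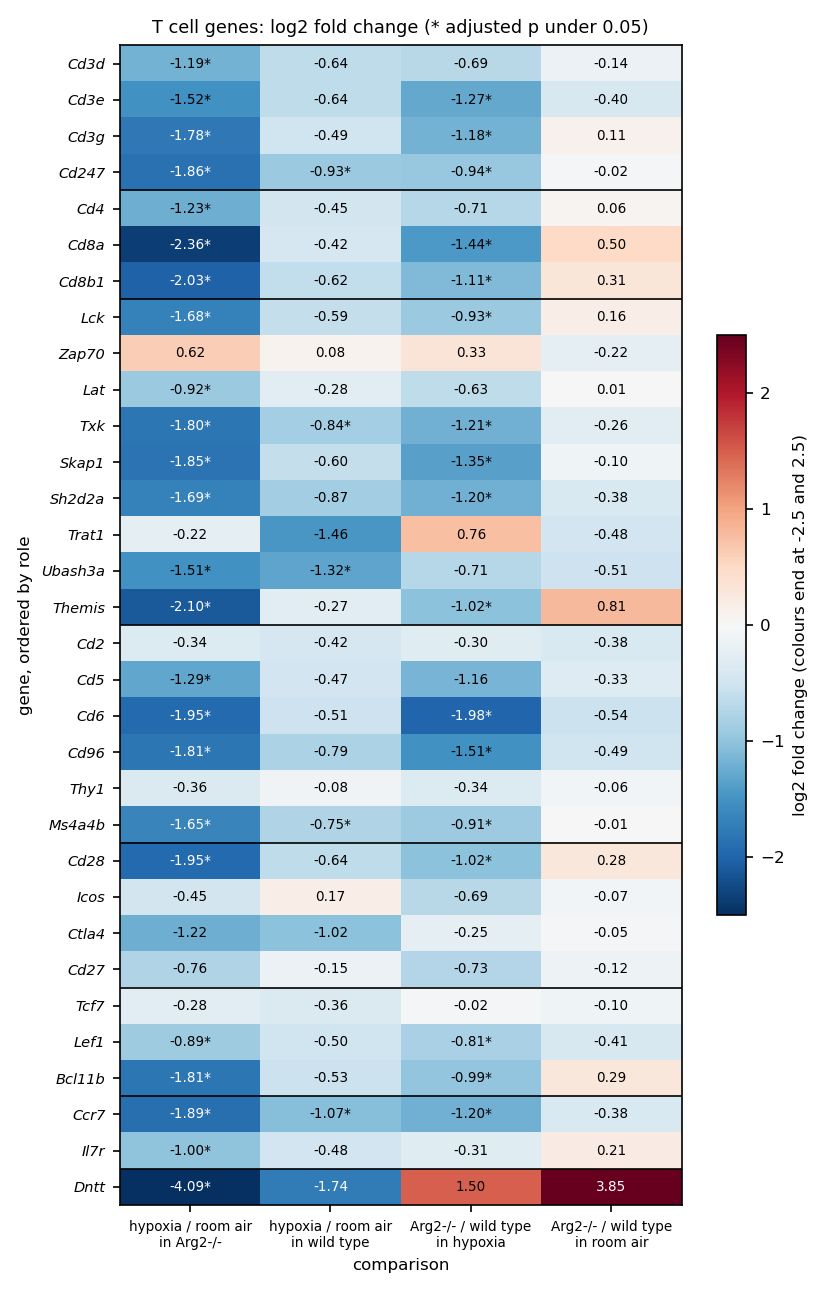
Log2 fold change (colour and printed value) of the 32 tested T cell genes, in rows ordered by role with lines between roles, in 4 comparisons, in columns; stars mark adjusted p under 0.05. The first column holds 24 starred values, all below 0, the second 5, the third 17 and the fourth 0.

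Between genotypes within hypoxia, 17 of the 32 genes were lower in Arg2-/- lungs and 0 higher. Over all genes 12.1% were called lower and 11.0% higher, and the medians were -0.92 for the 32 and -0.01 for all. Groups did not overlap for 19 genes, 16 of them called. At an unadjusted p under 0.05, 24 genes were lower and 0 higher, with the share of all genes not counted. DESeq2 called 22 lower and 0 higher, with 14.0% of all genes lower by DESeq2. The largest difference was that of Cd6, which had 0.691, 0.459, 1.3 and 0.402 CPM in knockout hypoxia lungs, against 2, 2.92, 1.95 and 3.68 CPM in wild type hypoxia lungs (-1.98 ± 0.39, adjusted p = 0.00215). Cd96 (-1.51 ± 0.27), Cd8a (-1.44 ± 0.42), Skap1 (-1.35 ± 0.24), Cd3e (-1.27 ± 0.30), Txk (-1.21 ± 0.25), Ccr7 (-1.20 ± 0.27) and Sh2d2a (-1.20 ± 0.29) followed, with adjusted p-values up to 0.0214. Among receptor chains Cd3g (-1.18 ± 0.30) and Cd247 (-0.94 ± 0.24) were lower too, whereas Cd3d (-0.69 ± 0.28, adjusted p = 0.0754) missed the threshold without overlap of the groups. Cd4 (-0.71 ± 0.27, adjusted p = 0.0651), Lat (-0.63 ± 0.26, adjusted p = 0.0852), Ubash3a (-0.71 ± 0.35, adjusted p = 0.15) and Zap70 (0.33 ± 0.22, adjusted p = 0.286) did not pass. Tcf7 (-0.02 ± 0.17) and Il7r (-0.31 ± 0.23) were among the smallest differences. The count stayed between 13 and 19 when single samples were left out, with 7.05% to 13.5% of all genes called lower. Cd8b1 was nearest to the threshold (-1.11 ± 0.39, adjusted p = 0.0483) and was called in 13 of 29 alternative fits. Cd28 was also lost without wild type hypoxia 3, and Cd28, Cd8a and Bcl11b without knockout hypoxia 4. This comparison sets only hypoxia samples against each other, but its test takes the spread from all groups, room air included. With only the compared groups fitted, the 17 calls were kept and Cd4 and Lat gained, with 11.1% of all genes called lower. None of the samples compared had Dntt above 0.461 CPM. Knockout hypoxia 1 had 2.99 CPM of Rag1, and its pancreas markers summed to 939 CPM. The knockout hypoxia samples used here are also those of the comparison of knockout hypoxia with knockout room air.

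In room air 0 of the 32 genes differed between genotypes by edgeR at adjusted p under 0.05, where 0.0761% of all genes were called in either direction. At an unadjusted p under 0.05 there were 4, with the share of all genes not counted. DESeq2 called 1, Themis, and 7.10% of all genes, a larger share. Cd2 (-0.38 ± 0.13, adjusted p = 0.108) and Lef1 (-0.41 ± 0.17, adjusted p = 0.162) were the 2 of the 4 with lower values in the knockout, and the 2 genes of the 32 whose room air groups did not overlap. Dntt (3.85 ± 1.03, adjusted p = 0.074) and Themis (0.81 ± 0.26, adjusted p = 0.0967) had higher values in the knockout, with overlapping groups and their highest samples in knockout room air 3 and 4. The median log2 fold change was -0.08 with all samples. Without knockout room air 3 and 4 the median was -0.39 (27 of 32 negative, 7 at an unadjusted p under 0.05, 0 called). In that fit 0 of all 16095 genes tested were called, so the 0 cannot set these genes apart. The median was -0.43 without the 5 samples with high genes of other organs. Leaving out knockout room air 1, 2, 3 or 4 singly gave 0.0, -0.01, -0.15 and -0.22. Leaving out wild type room air 1, 2, 3 or 4 singly gave -0.14, -0.03, -0.21 and -0.01. Without knockout room air 3 and 4 the sign of 12 genes turned, 9 of them to negative. Among these were Cd8b1 (-0.77, against 0.31 with all samples) and Dntt, by whose level the 2 samples were picked. Leaving out wild type room air 3, which had the lowest share of reads in genes (25.4%, against 35.5% or more in the other 15 samples) and the most multiple alignments (12.4 per read in genes, against at most 7.13), Ccr7 was called lower in the knockout (-0.60 ± 0.18, adjusted p = 0.038). Then 5.68% of all genes were called lower, so that 1 of 32 was below the share over all genes.

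Whether the response to hypoxia differed between genotypes was tested as the difference of the 2 log2 fold changes, knockout minus wild type. Of the 32 genes 1 was called, Themis at -1.83 ± 0.39 (adjusted p = 0.0392), with 0.222% of all genes called lower. Themis had 1.78, 1.42, 1.52 and 1.8 CPM in knockout hypoxia lungs, against 4.27, 4.62, 10 and 9.19 CPM in knockout room air lungs. It had 3.19, 2.89, 3.69 and 3.51 CPM in wild type hypoxia lungs, against 4.12, 4.18, 2.15 and 5.12 CPM in wild type room air lungs. Without knockout room air 3 and 4 the Themis difference was -1.17 ± 0.34 (adjusted p = 0.189). Then 0 of the 32 genes were called, with 0.13% of all genes called lower. Over 28 alternative fits the Themis difference lay between -2.02 and -1.14 and was called in 12, with adjusted p-values from 0.00119 to 0.283. The call was lost when any of knockout hypoxia 1 to 4, knockout room air 3 or 4, wild type hypoxia 1, 3 or 4 or wild type room air 2 was left out. Its gene overlaps 4930519F09Rik on the opposite strand. Skap1 (-1.25 ± 0.32, adjusted p = 0.0823), Cd8a (-1.94 ± 0.56, adjusted p = 0.118) and Lck (-1.09 ± 0.32, adjusted p = 0.119) did not pass. The median of the 32 was -0.82, 28 of them negative, and DESeq2 called 7 lower, with 1.59% of all genes lower by DESeq2. For the other 31 genes edgeR did not show that the response differed between genotypes.

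The genes around these in the same pathway moved in both directions. Of 20 further T cell signalling genes, 12 fell and 3 rose in knockout hypoxia against knockout room air, with a median of -0.71. Among the calls of smallest p were Ptpn22, a phosphatase that restrains Lck (-1.43 ± 0.19), and the adaptor Grap2 (-0.96 ± 0.14). Ptpn22 also fell in wild type hypoxia (-0.92 ± 0.18), where 4 of the 20 fell and 0 rose. Named after their values were seen, the 3 that rose in knockout hypoxia were Plcg1 (0.46 ± 0.09), Fyn (0.35 ± 0.08) and Malt1 (0.36 ± 0.10), which many non-lymphoid cells also express. Between genotypes in hypoxia 11 were lower and 1 higher. Of 25 tested helper, regulatory and memory genes, 12 fell and 1 rose in knockout hypoxia, 5 fell and 0 rose in wild type hypoxia, and 11 were lower and 2 higher in the knockout within hypoxia. Among the calls of smallest p in knockout hypoxia were the chromatin organiser Satb1 (-1.44 ± 0.14) and the activation and retention receptor Cd69 (-1.99 ± 0.22). Satb1 had 11.7, 9.73, 9.66 and 8.81 CPM in knockout hypoxia lungs, against 22.9, 24.6, 31.8 and 28.8 CPM in knockout room air lungs, without overlap.

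Markers of other leukocytes moved with the T cell genes, and their part in the result was not tested. All 10 B cell markers fell in knockout hypoxia (median -1.75), summing to 31.0 to 54.9 CPM in knockout hypoxia lungs against 97.8 to 155 CPM in knockout room air lungs. All 10 natural killer and cytotoxic markers fell too (median -1.54), at 27.9 to 50.8 CPM in knockout hypoxia lungs against 91.6 to 125 CPM in knockout room air lungs. In wild type hypoxia 4 B cell markers (median -1.04) and 8 natural killer and cytotoxic markers (median -1.11) fell, beside 5 of the 32 T cell genes (median -0.56). Between genotypes in hypoxia all 10 B cell markers (median -1.41) and 4 natural killer and cytotoxic markers (median -0.67) were lower in the knockout. Of 8 pan-leukocyte genes 6 fell in knockout hypoxia (median -0.71), 2 in wild type hypoxia (median -0.31) and 7 were lower in the knockout within hypoxia (median -0.51). Ptprc had 166, 172, 184 and 184 CPM in knockout hypoxia lungs, against 315, 316, 303 and 367 CPM in knockout room air lungs. Of 7 macrophage and monocyte markers 2 fell and 1 rose in knockout hypoxia (median -0.41), 0 were called in wild type hypoxia and 3 were lower in the knockout within hypoxia. Of 8 lung structural markers 0 fell and 1 rose in knockout hypoxia (median -0.08), namely the endothelial Pecam1 (0.52 ± 0.08); 0 were called in wild type hypoxia, and 2 were lower and 1 higher in the knockout within hypoxia.

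**Figure D5:**
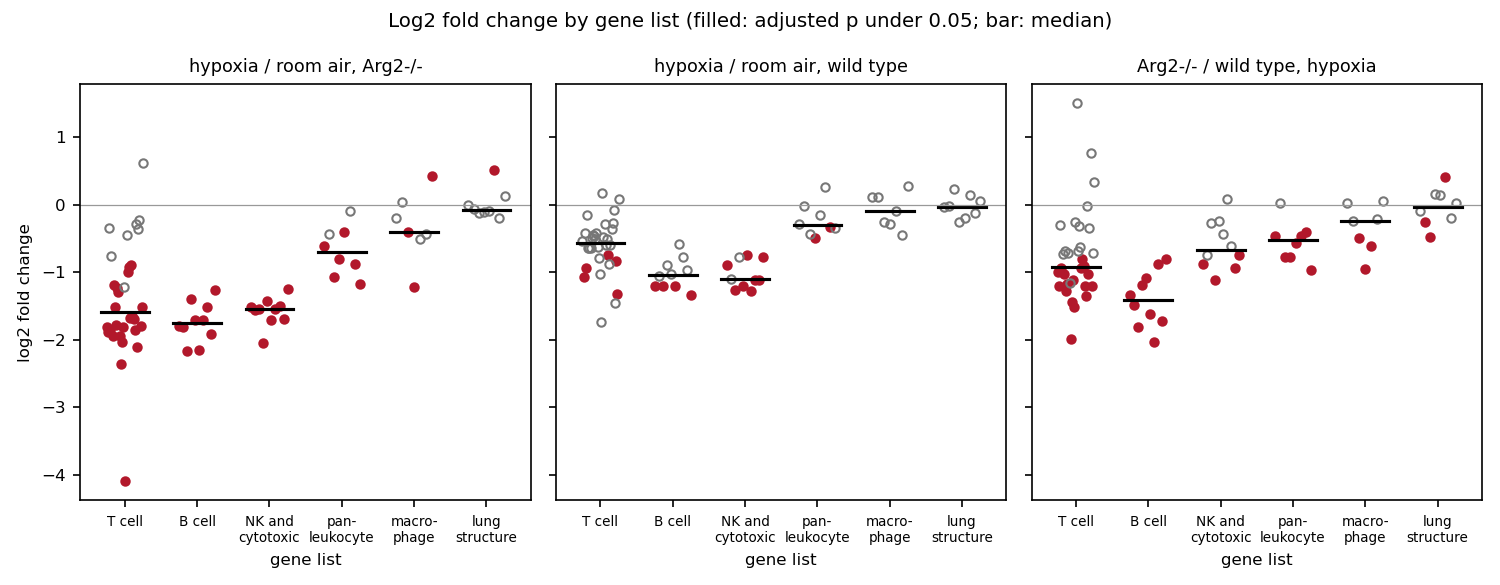
Log2 fold change (vertical axis) of the genes in 6 lists, with one panel for each of 3 comparisons; each point is a gene, filled where adjusted p was under 0.05, and the bar is the list's median. In knockout hypoxia against knockout room air the medians are -1.58 for T cell, -1.75 for B cell and -1.54 for natural killer and cytotoxic genes, against -0.71 for pan-leukocyte, -0.41 for macrophage and -0.08 for lung structural genes.

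Per kilobase of exon, the genes spanned a wide range of levels in wild type room air lungs. Exon length here joins all annotated exons of a gene, such as 4080 bases for Cd3e and 1815 for Cd3d. It may exceed the length of the transcript expressed, so the order also depends on the annotation. Cd2 was highest at 18.3 ± 2.23 CPM per kilobase (SD, n = 4), followed by Ccr7 at 15 ± 5.50, Tcf7 at 7.76 ± 0.740 and Lck at 4.52 ± 1.27 CPM per kilobase. Cd2 and Ccr7 did not differ beyond their spread. Among receptor chains Cd3d (2.71 ± 0.537 CPM per kilobase), Cd3g (2.13 ± 0.714) and Cd247 (2.04 ± 0.720) were close to each other, with Cd3e lower at 0.852 ± 0.170. Cd4 and Cd8a were level, at 1.67 ± 0.288 and 1.69 ± 0.450 CPM per kilobase. In knockout hypoxia lungs the order changed for Zap70, which at 3.06 ± 0.576 CPM per kilobase stood above Lck at 1.6 ± 0.362. Trat1, Dntt and Foxp3 were the 3 lowest genes in wild type room air lungs.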

How the data were processed

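Per the labels' protocols, ribosomal RNA was removed from total lung RNA and directional libraries were made. Per the submitters' processing notes, the authors used Trim Galore, TopHat2 on mm10 and HTSeq, with no version or strand setting stated there. The deposited files hold raw read counts per gene symbol in 20 libraries. The 4 pairs lettered A and B under 1 number differed by a chi-square of 2.46 to 3.51 per degree of freedom, against 11.0 or more for other pairs within a group, and each was summed, giving 16 samples. The largest values, 915 to 1650, were between wild type hypoxia 4 and the other wild type hypoxia samples. Remaining pairs reached at most 122, and the cause was not tested. The 5 lines that name no gene stayed out; reads in genes were 25.4% to 64.2% of reads in genes and outside features. The labels do not say that numbered samples are separate mice, so p-values reflect only the variation among numbered samples, which may be technical. Genes were kept by edgeR's filter (minimum count 10, 15 in all), scaled by TMM and tested by edgeR's quasi-likelihood test (edgeR 4.0.16, R 4.3.3) over all 4 groups, with Benjamini-Hochberg adjustment over 15766 genes and calls at 0.05; the SE is the log2 fold change over the root of the F statistic. Alternatives included DESeq2 1.42.0 and limma voom 3.58.1. The steps were checked on simulated data. All 33 genes are accounted for, and those on which results turn were given in every sample, with any gene whose call differed from most of its role. From other lists, up to 3 called genes of smallest p are named, beside genes that stand beside a member's result; some genes the rule names are not reported here. The genes and lists were chosen with earlier results of these data known. Gene positions are from GENCODE on GRCm38, and 3 counts is the floor for a count of 0.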

Additional observations from a re-analysis of the deposited data

Results flagged for a closer look

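In 10 of 132 groups of 4 samples, 1 sample lay far from the other 3 by Dixon's test, which chance gives in about 1 of 20 groups. Wild type hypoxia 1 was high for Cd3e (2.76 CPM against 2.02 to 2.12) and low for Cd4 (3.51 CPM against 5.31 to 5.39) and Lat (4.54 CPM against 6.02 to 6.27). Wild type hypoxia 3 was high for Ctla4 (0.913 CPM against 0.324 to 0.413). Wild type room air 2 was high for Sh2d2a (7.75 CPM against 4.67 to 5.05), and wild type room air 3, the shallowest sample, was low for Ccr7 (13.6 CPM against 33.9 to 37.5). Knockout room air 2 was low for Lef1 (5.84 CPM against 8.46 to 8.81). Knockout room air 3 was low for Ccr7 (15.4 CPM against 24.9 to 26.4). Knockout room air 4 was low for Cd2 (22.8 CPM against 25 to 25.3) and high for Il7r (31.8 CPM against 16 to 18.5). Themis was flagged because its hypoxia response was called different between genotypes, by -1.83 on the log2 scale (knockout minus wild type). That call was kept in 12 of 28 alternative fits, and was lost without knockout room air 3 and 4 (-1.17).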

How the results depend on the processing

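The number of T cell genes called in knockout hypoxia, 24, ranged from 21 to 26 when single samples were left out and was 16 to 26 under all alternatives. Where it was 26, these were 25 lower and Zap70 higher. The share of all genes called lower ran from 3.99% to 11.8% over the alternatives. The number called in the knockout within hypoxia, 17, ranged from 13 to 19 and reached 22 with DESeq2. There 7.05% to 14.1% of all genes were called lower over the alternatives. The wild type count of 5 became 8 with DESeq2, 1 with only the compared groups fitted, 3 with library B alone of each pair, 2 without the 5 lungs with high genes of another organ, and 0 to 7 when single samples were left out. In these fits 1.17% to 3.25% of all genes were called lower. The room air count of 0 became 1 with DESeq2 and ranged from 0 to 1 when single samples were left out. The share of all genes called in either direction ran from 0.0% to 13.8%. The count for the difference, 1, became 7 with DESeq2, 0 with limma voom, with the GC trend removed (with or without the replicate block), with library A alone, without the 2 Dntt samples and without the 5 lungs with high genes of another organ, and ranged from 0 to 1 when single samples were left out. For the difference, 0.0756% to 1.59% of all genes were called lower over the alternatives. Correlations of same-numbered samples' deviations were 0.09 to 0.33 for the knockout in room air, -0.13 to 0.46 for wild type hypoxia, -0.33 to 0.19 for knockout hypoxia and -0.24 to 0.09 for the knockout within hypoxia. In no comparison were all 4 over 0.1, and 7, 5, 2 and 1 of 8 samples correlated best with their own number, so pairing was not taken as given, although all 4 were positive in room air. With a replicate block the counts were 24 in knockout hypoxia (Dntt lost, Zap70 gained as higher), 5 in wild type hypoxia, 17 in the knockout within hypoxia (Cd8b1 lost, Cd5 gained), 0 in room air and 1 for the difference. Signs of some values turned as follows, with the cause not tested. Without the Dntt samples, knockout hypoxia gave 0.22 for Trat1, 0.08 for Tcf7 and 0.26 for Dntt, the knockout in room air -0.48 for Dntt, -0.41 for Cd8a, -0.77 for Cd8b1 and -0.31 for Lck, and the difference 1.99 for Dntt. Without those 5 lungs these were 0.03 for Dntt in knockout hypoxia, -0.58, -0.43, -0.68 and -0.37 for Dntt, Cd8a, Cd8b1 and Lck in room air, 1.86 for Dntt in the difference and 0.14 for Ctla4 in the knockout within hypoxia. The turns of Dntt follow from picking knockout room air 3 and 4 by their Dntt level. Library B alone gave 0.12 for Thy1 and -0.04 for Icos in wild type hypoxia; removing the GC trend gave 0.06 for Tcf7 in the knockout within hypoxia, and 0.07 with the replicate block. Without wild type room air 3, Zap70 came to -0.07 in wild type hypoxia. Leaving out single samples, the ranges were -0.51 to 0.28 for Trat1 in knockout hypoxia, -0.07 to 0.27 for Zap70 and -0.17 to 0.05 for Thy1 in wild type hypoxia, -0.74 to 0.20 for Ctla4 and -0.13 to 0.09 for Tcf7 in the knockout within hypoxia, and -0.02 to 0.34 for Lck and -0.06 to 0.54 for Cd8b1 in room air. Over the fold changes reported for single genes and all alternatives, 3078 values kept direction and side of the threshold, 73 gained and 111 lost a call, and 30 turned; room air values of the other genes are not among these. Depth limits Foxp3, Dntt, Ctla4 and Trat1 most.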

Other observations

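Group 2 innate lymphoid cells share Il7r and Icos with T cells. Of 6 of their markers 4 could be tested, and 2 fell in knockout hypoxia against knockout room air. Hs3st1, a sulfotransferase also made by other cells, had 14.9, 17.3, 14.3 and 12.9 CPM in knockout hypoxia lungs, against 38.3, 38.2, 22 and 19.7 CPM in knockout room air lungs (-0.99 ± 0.20, adjusted p = 0.00197). The interleukin 33 receptor gene Il1rl1 had 3.78, 4.63, 5.36 and 2.72 CPM in knockout hypoxia lungs, against 6.86, 5.78, 6.19 and 6.52 CPM in knockout room air lungs (-0.64 ± 0.19, adjusted p = 0.022). The cytokine genes Il13 and Il5 were at 0 in most samples and reached 0.215 and 0.107 CPM in wild type room air 3.

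Cd1d1, which presents lipids to natural killer T cells and is made by many other cells, was lower in hypoxia in both genotypes. It had 8.75, 8.18, 9.6 and 8.93 CPM in knockout hypoxia lungs, against 12.3, 12.6, 14.1 and 11.4 CPM in knockout room air lungs (-0.51 ± 0.10, adjusted p = 0.00184). It had 8.6, 7.88, 8.88 and 7.9 CPM in wild type hypoxia lungs, against 11.6, 12.4, 11.5 and 13.2 CPM in wild type room air lungs (-0.55 ± 0.10, adjusted p = 0.00285). The groups did not overlap in either genotype.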
